A study of Mus musculus with 8 samples.

Results

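Depletion of Ubc9 was compared with control in mouse embryonic stem (ES) cells of the v6.5 line by sequencing of polyA-selected RNA. The experiment takes up 4 of the 8 libraries of the series, and all 24421 gene symbols of its count table were used. Ubc9-depleted cells (libraries 1 and 2) were collected after 72 hours of doxycycline (DOX), and control cells (Ubc9-WT, libraries 1 and 2) belonged to the same line. Both groups had gone through 3 to 4 passages in 2i/LIF medium, with a pair of kinase inhibitors and leukaemia inhibitory factor which hold ES cells in a naive state. The labels do not say how doxycycline brings about the loss of Ubc9, whether the controls also received it, or whether the libraries of a group are separate cultures, so every p-value below measures only the spread between libraries.

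Ubc9 is the only E2 enzyme that conjugates SUMO, a small ubiquitin-like protein, to lysines of other proteins. SUMO is passed from an E1 enzyme to Ubc9 and from there to targets, often with the help of an E3 ligase, and is taken off again by SENP proteases. Many of its targets are nuclear, among them transcription factors, chromatin repressors and proteins of PML nuclear bodies, and in ES cells the pathway is known for keeping early-embryonic genes and transposons silent.

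Library totals ranged from 75972231 to 102780141 counts, at which 3 counts make between 0.0300 and 0.0393 CPM (counts scaled to a common, TMM-adjusted library size). Values in pairs are given for libraries 1 and 2 of a group. Depleted library 1 stood apart, with counts on 23462 genes against 18584 to 19591 in the other 3. Among 1470 olfactory and vomeronasal receptor genes, which ES cells do not use, 94.5% had a count in depleted library 1, against 19.4% in depleted library 2 and 11.2% and 10.7% in the controls. These were low levels: 95 of 100 such genes stayed at or under 0.260 CPM in depleted library 1. Rn45s, the ribosomal RNA precursor, took 5.34% of the counts there and between 8.13% and 8.35% in the other 3. Genes are therefore called expressed below only where they reached 1 CPM in depleted library 2 or in both controls, which was the case for 12992 of 16499 tested genes, and every named gene is given with both depleted libraries.

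Markers of ES cells were present in each library: all 20 of 20 reached 1 CPM throughout, with 3 higher and 3 lower (6 higher and 2 lower with library totals). Pou5f1, a core pluripotency factor, had 761 and 745 CPM in the depleted and 742 and 733 CPM in the control libraries, and Nanog, another, 839 and 634 against 698 and 732 CPM. Of the marker lists for other cells, globins had 0 members tested and placental genes 0 expressed. Summed over 18 fibroblast markers, the level was 100.95 and 95.9 CPM in the depleted libraries against 76.4 and 73.7 in the controls. Of these markers 7 had 1 CPM in both controls, with 3 higher (Col1a1, Col3a1 and Col5a1) and 1 lower. S100a4 was at 0.280 and 0 CPM in the depleted and 0.0103 and 0 CPM in the control libraries, and the part of such cells in the results on matrix genes below was not tested. Of 22 markers of blood and immune cells 6 had 1 CPM in both controls, with 0 higher and 4 lower. Their summed level, most of it from Kit, was 241 and 268 CPM in the depleted libraries against 546 and 552 in the controls, with 0 and 1 markers at 0 against 5 in each control. Ptprc, the pan-leukocyte marker, was at 0.789 and 0.0131 CPM in the depleted and 0 and 0.0217 CPM in the control libraries. The part of such cells in the rises of leukocyte genes below was not tested. Neuron markers summed to 355 and 377 CPM in the depleted and 306 and 293 in the control libraries, and 4 of the 11 with 1 CPM in both controls were higher and 3 lower. For endothelial markers the sums were 297 and 335 against 295 and 269.9 CPM, with 2 of 7 higher and 1 lower. Among such markers of glia 0 of 6 were higher and 1 lower, of muscle 2 of 7 and 0, and of liver and gut 1 of 5 and 2. In bulk RNA a change in how many cells express a gene and a change in RNA per cell cannot be told apart.

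Of the 16499 genes tested, 3479 (21.1%) were called higher and 2467 (15%) lower. Among the 12992 expressed genes, 2328 (17.9%) were higher and 2463 (19%) lower in the depleted cells by the threshold of 0.05 on the adjusted p (quasi-likelihood test of edgeR, Benjamini-Hochberg, as for every call and adjusted p below). In 2312 and 2460 of them the depleted and control libraries did not overlap (17.8% and 18.9%). The 2 directions differed in size and in the level of the genes. The median change of higher genes was 1.04 on the log2 scale and their median level 6.38 CPM, and 511 of them changed at least 4-fold. For lower genes these medians were -0.46 and 49.6 CPM, and 16 changed at least 4-fold. The expressed set favours rises by its rule, since 888 genes entered it only through depleted library 2, and 601 of these (67.7%) were higher and 0 lower. Over the 12104 genes with 1 CPM or more in both controls, which were not chosen by their level after depletion, 1727 (14.3%) were higher and 2463 (20.3%) lower. A floor in the controls favours falls in turn, since it leaves out these 601 higher genes and 0 lower ones. Gene groups below are counted over members in that set, against these shares, which are not matched for level.

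Both shares depended on the level of expression. From 1 to 5 CPM, 21.1% of the genes with 1 CPM in both controls were higher and 4.76% lower, and from 5 to 20 CPM 24.5% were higher and 15.4% lower. From 20 to 50 CPM the shares were 11.8% and 23.9%, from 50 to 150 CPM 5.92% and 28.7%, from 150 to 500 CPM 2.33% and 30.6%, and above 500 CPM 1.52% and 33.8%. Fewer counts leave only large changes detectable in the lower bins, so the shares of different bins do not have the same reach. With library totals in place of TMM, the median over expressed genes went from -0.05 to 0.14 on the log2 scale. That scaling gave 3099 higher and 1082 lower expressed genes, and the share of higher genes among calls was 74.1%, against 48.6% with TMM. Small falls are therefore relative to the scaling. Without depleted library 1, depleted library 2, control library 1 and control library 2 in turn, 2456, 2728, 1103 and 1052 expressed genes were higher and 2423, 4592, 897 and 795 lower. DESeq2 called 1440 expressed genes higher and 2307 lower. For most gene groups, counts without each library in turn are given in this order below, and counts with library totals beside them.

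**Figure D1:**
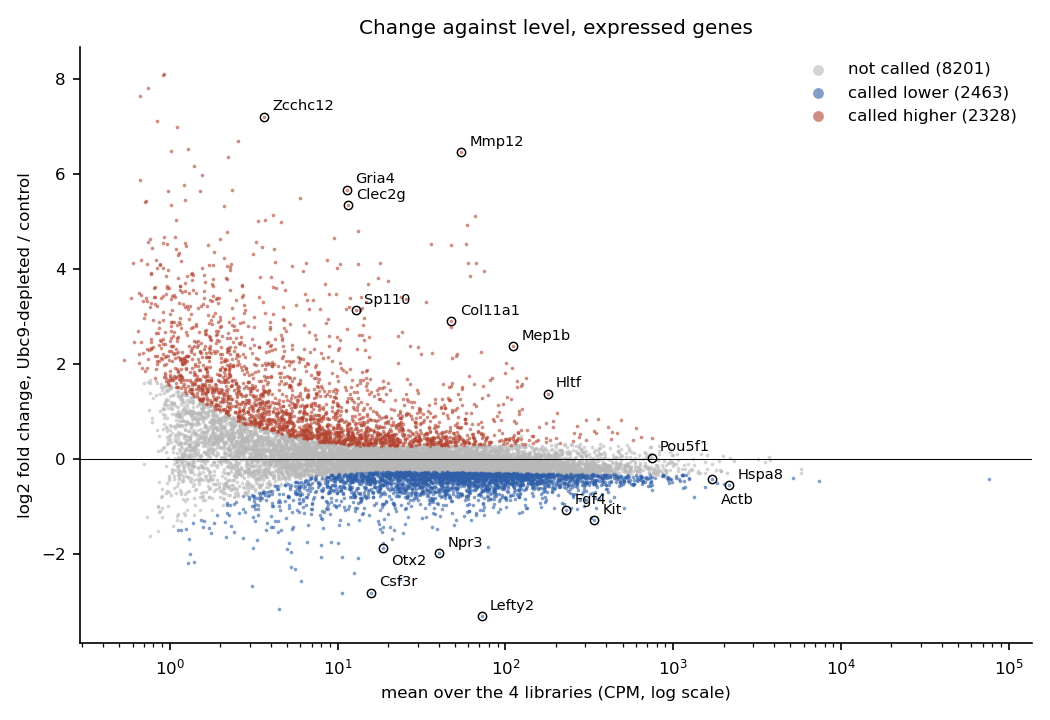
Log2 fold change of Ubc9-depleted over control cells (vertical axis) against the mean of the 4 libraries in CPM (horizontal log axis) for 12992 expressed genes, coloured by call, with circled genes named in the text. The 2328 higher genes spread to large changes at low levels, with a median of 1.04 at 6.38 CPM, while the 2463 lower genes have a median of -0.46 at 49.6 CPM.

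**Figure D2:**
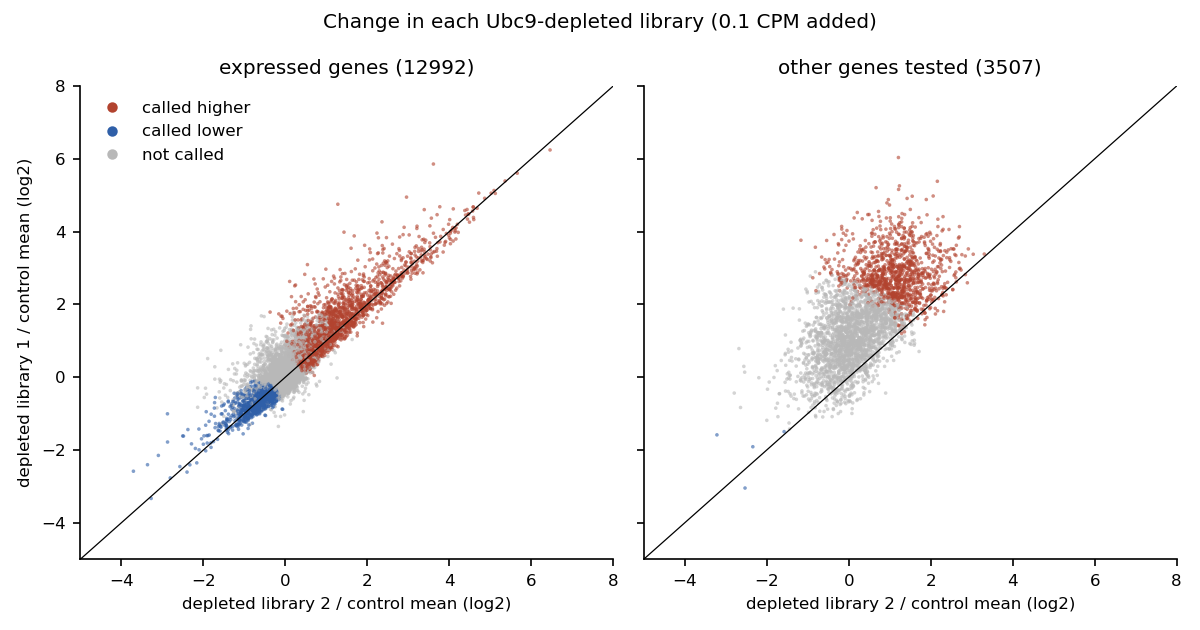
Log2 ratio to the control mean in depleted library 1 (vertical axis) against depleted library 2 (horizontal axis), after adding 0.1 CPM, for 12992 expressed genes (left) and 3507 other tested genes (right); the line marks equal change. Most expressed genes lie near the line, while among the others 933 of 1151 genes called higher have more than 2 times the CPM in library 1.

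The plot of depleted library 1 against depleted library 2 shows how the expression rule acts. Of 2328 expressed genes called higher, 138 had more than 2 times the CPM in depleted library 1, against 933 of 1151 genes called higher outside the expressed set. In 0 genes of either set was depleted library 2 more than 2 times above library 1. Fitted without depleted library 1, 2071 of the 2328 were still called higher and 1998 of the 2463 still called lower.

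A small group of genes went from near 0 to a clear level. Of 8639 genes under 0.1 CPM in both controls, 29 reached 1 CPM in depleted library 2, and each of these also did in depleted library 1, where 588 did in all. Zcchc12, a zinc finger protein, had 2 and 7 counts in the controls and 712 and 564 in the depleted libraries, 7.11 and 7.39 CPM, a ratio of 152 after scaling to library size (95% counting interval 79.8 to 333). Rdh16, a retinol dehydrogenase, had 4.48 and 4.32 CPM in the depleted and 0.0823 and 0.0217 CPM in the control libraries. Calcr, the calcitonin receptor, had 1 count in the controls together and 2.02 and 1.60 CPM in the depleted libraries, a ratio of 347 with an interval of 61.9 to 13763. A high level in depleted library 2 and no overlap between the groups were conditions of choosing these genes. Ratios pool the counts of both depleted libraries, and intervals cover counting error only.

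The others in this group were of many kinds. Cldn11, a tight-junction claudin, had 3.01 and 2.06 CPM in the depleted libraries and 0.0412 and 0.0109 in the controls. Adh7, an alcohol dehydrogenase acting on retinol, had 3.08 and 1.72 against 0.0206 and 0.0869 CPM, and Magel2, an imprinted gene of the Prader-Willi region, 2.52 and 1.62 against 0.0618 and 0.0978 CPM. In Fat3, a giant protocadherin, the depleted libraries were far apart at 8.44 and 1.70 CPM, yet both were above the controls at 0.0515 and 0.0435. Of the 1470 olfactory and vomeronasal receptor genes 9 were expressed, all through depleted library 2, and 6 of these (66.7%) were higher. That is near the 67.7% of all 888 genes that entered the set this way, of which 0 were lower. Among the 6 was Olfr913 at 1.21 and 1.61 against 0.0618 and 0 CPM. The reverse, a gene at 1 CPM in both controls and under 0.5 CPM in both depleted libraries, was seen once, for the predicted gene Gm9 at 0.420 and 0.327 against 1.27 and 1.05 CPM, which did not pass the test (adjusted p = 0.064).

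Among better expressed genes, large rises were seen both in clustered families and in genes of other kinds. In families with near-identical copies, which may share reads, Usp17le, a deubiquitinase gene, had 83.0 and 99.9 against 4.59 and 3.48 CPM (log2 fold change 4.50) and Tcstv3 17.1 and 20.3 against 0.968 and 1.33 CPM (4.03). The plot of selected genes shows genes outside those families. Mmp12, a secreted elastase of macrophages, had 99.95 and 116 CPM in the depleted and 1.20 and 1.24 in the control libraries. Cybb, the catalytic subunit of the phagocyte NADPH oxidase, had 12.4 and 12.3 against 0.576 and 0.847 CPM and rose by 4.12 ± 0.20 on the log2 scale (± SE here and below, adjusted p = 1.8e-16). Penk, the precursor of enkephalin peptides, had 29.9 and 35.6 against 2.30 and 2.36 CPM, a rise of 3.81 ± 0.13.

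Arg2, the mitochondrial arginase, rose from 1.41 and 1.02 to 14.4 and 16.9 CPM, or by 3.68 ± 0.17 on the log2 scale. Flt4, the receptor of lymphatic growth factors, had 24.2 and 26.0 CPM against 2.44 and 2.25 in the controls, a change of 3.42 ± 0.13. Ceacam2, a cell-adhesion protein of the immunoglobulin family, had 15.6 and 17.3 against 1.10 and 0.684 CPM. Cfap70, a protein of cilia, had 17.2 and 22.2 against 1.24 and 1.05 CPM. For each of these genes the depleted libraries lay close together and far above both controls. A lack of overlap between the groups was a condition of naming them. Their calls held with any 1 of the 4 libraries left out. Mep1b, a membrane metalloprotease known from kidney and gut, was among the 12 largest rises in absolute level, from 36.2 and 36.4 to 176 and 198 CPM (2.37 ± 0.13 on the log2 scale). Hltf, a DNA translocase of replication-fork repair, rose from 97.5 and 102 to 234 and 282 CPM (1.37 ± 0.13).

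Genes that fell furthest included several regulators and receptors. Prdm1, a zinc finger repressor needed for germ cell fate, had 3.53 and 2.54 CPM in the depleted against 12.5 and 13.1 CPM in the control libraries, a fall of 2.07 ± 0.16 on the log2 scale (adjusted p = 1.5e-11). Otx2, a homeobox factor of the exit from naive pluripotency and of forebrain, had 7.59 and 8.24 against 27.5 and 31.0 CPM, a fall of 1.89 ± 0.11. Hesx1, a homeobox repressor of the anterior forebrain, had 2.28 and 2.03 against 7.98 and 8.89 CPM, and Tbx15, a T-box factor, 9.78 and 10.2 against 29.8 and 34.6 CPM. All 4 transcription factor genes had depleted libraries below both controls, which was a condition of naming them.

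Npr3, the clearance receptor of natriuretic peptides, had 15.8 and 16.7 CPM in the depleted and 64.6 and 64.3 in the control libraries and fell by 1.99 ± 0.11. Csf3r, the receptor of granulocyte colony-stimulating factor, had 3.98 and 3.86 against 27.4 and 28.0 CPM. Rbm47, an RNA-binding protein of splicing and RNA editing, had 8.37 and 8.47 against 28.9 and 28.7 CPM, and Cap2, which binds actin monomers, 4.02 and 3.08 against 12.3 and 12.7 CPM. Kit, the receptor of stem cell factor, was the most abundant of the genes named in this paragraph, with 178 and 218 against 479.8 and 483 CPM and a fall of 1.28 ± 0.13. These calls held with each library left out.

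**Figure D3:**
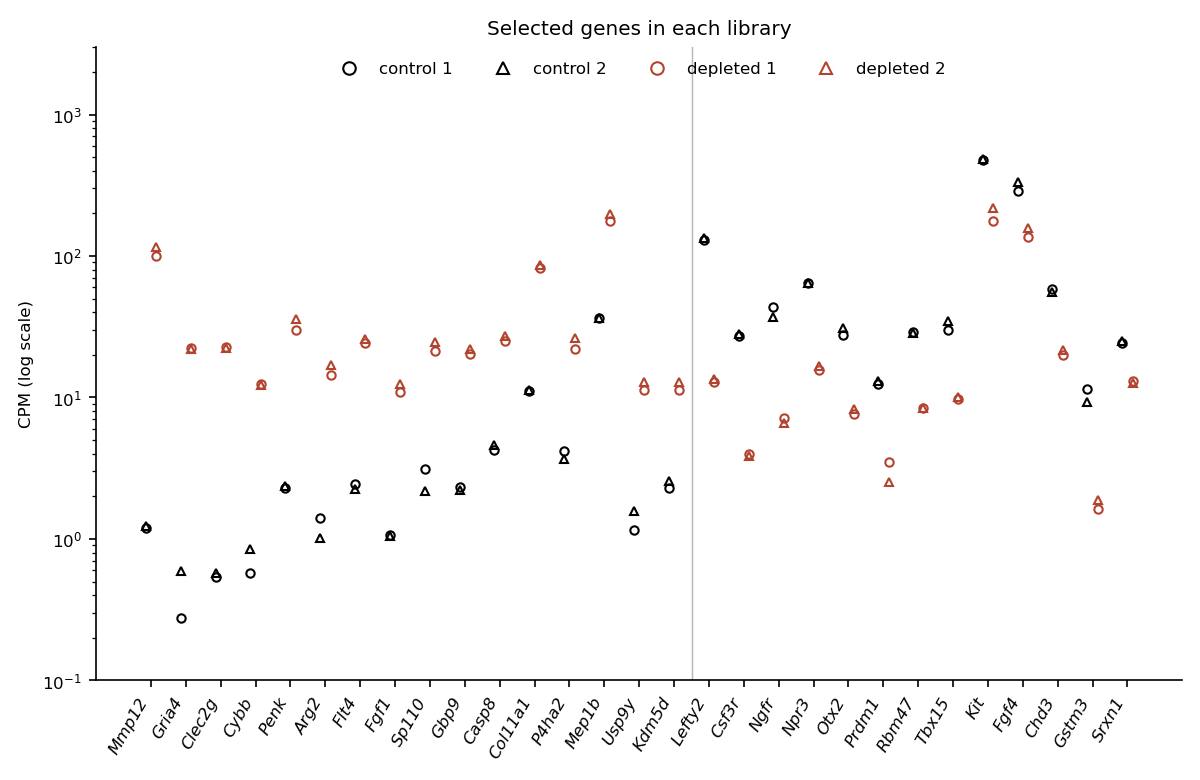
CPM (log axis) of 29 genes in control libraries 1 and 2 (black circle and triangle) and Ubc9-depleted libraries 1 and 2 (red circle and triangle); genes left of the grey line were higher and genes right of it lower after depletion. In each gene shown the 2 depleted libraries lie on the same side of both controls, a condition of the choice by rank or list. Usp9y was instead chosen after its values were seen. Examples are 176 and 198 against 36.2 and 36.4 for Mep1b and 178 and 218 against 479.8 and 483 for Kit.

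The promoters of genes with large changes held fewer CG dinucleotides than those of other genes with 1 CPM in both controls. RefSeq promoters of GRCm38.p6, from 250 bases before to 50 after the first-listed start, were matched to 12865 tested genes. The median number of CG was 21 over 9681 genes with 1 CPM in both controls, 9 over the 82 of them called higher at least 4-fold with no overlap, 11 over 124 called lower at least 2-fold, and 21 over 880 called higher by less than 2-fold. Genes outside the expressed set had a median of 8. With genes that were expressed through depleted library 2 only, 380 were higher at least 4-fold with a median of 10, a value that the expression rule itself bears on. TATAAA, searched on both strands, was in 14.6% of the promoters of the 82 higher genes and 12.9% of those of the 124 lower genes, against 6.82% of the 9681 and 14.2% of all 27025 promoters. CACGTG, on both strands, was in 8.54%, 7.26% and 10.6% of these same sets, and TGACTCA in 7.32%, 4.03% and 3.11%. Restriction to genes with 1 CPM in both controls was chosen after seeing the data. Levels of expression also differ between these sets, and their part was not tested. Near-identical copies of clustered families were counted as separate promoters. Among the genes higher at least 4-fold, Zscan4b, Zscan4c, Zscan4d and Zscan4f each hold TATAAA, and the part of such copies was not tested.

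Promoters of 4 of the genes with the largest changes show this range and were chosen after their values were seen. CG is in capitals, and each is written 5′ to 3′ on the gene's strand. Mmp12 (chr9:7344147-7344446, plus strand) holds 0 CG, Zscan4d (chr7:11166099-11166398, minus strand) 3, and Gria4, a glutamate receptor subunit (chr9:4796185-4796484, minus strand), 17. These 3 rose, with log2 fold changes of 6.47, 5.12 and 5.67, though near-identical copies may share the reads of Zscan4d. Csf3r (chr4:126024409-126024708, plus strand), which fell by 2.82 ± 0.12, holds 9.
Mmp12: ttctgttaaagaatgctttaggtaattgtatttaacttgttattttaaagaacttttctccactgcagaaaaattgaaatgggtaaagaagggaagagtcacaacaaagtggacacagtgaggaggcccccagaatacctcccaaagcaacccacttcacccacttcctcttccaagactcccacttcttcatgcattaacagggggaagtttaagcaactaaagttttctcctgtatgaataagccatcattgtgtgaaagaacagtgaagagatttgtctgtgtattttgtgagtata
Zscan4d: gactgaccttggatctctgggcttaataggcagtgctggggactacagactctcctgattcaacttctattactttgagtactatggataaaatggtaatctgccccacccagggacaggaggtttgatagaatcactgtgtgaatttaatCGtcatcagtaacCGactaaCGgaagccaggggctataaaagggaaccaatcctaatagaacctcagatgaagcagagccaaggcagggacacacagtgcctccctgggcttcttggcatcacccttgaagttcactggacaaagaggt
Gria4: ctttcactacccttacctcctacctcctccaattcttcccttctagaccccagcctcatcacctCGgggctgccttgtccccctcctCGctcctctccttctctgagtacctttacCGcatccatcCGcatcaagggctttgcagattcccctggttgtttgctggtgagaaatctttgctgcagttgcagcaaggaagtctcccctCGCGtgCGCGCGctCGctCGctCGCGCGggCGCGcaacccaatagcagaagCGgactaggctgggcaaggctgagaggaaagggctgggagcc
Csf3r: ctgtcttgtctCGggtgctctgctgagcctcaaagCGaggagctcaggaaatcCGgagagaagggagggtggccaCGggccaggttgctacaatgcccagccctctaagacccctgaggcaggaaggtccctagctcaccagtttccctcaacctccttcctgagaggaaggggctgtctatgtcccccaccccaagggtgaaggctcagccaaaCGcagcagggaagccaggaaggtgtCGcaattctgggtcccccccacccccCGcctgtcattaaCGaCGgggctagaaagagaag

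Signalling genes moved in both directions, and the group with the largest share of falls was the Wnt pathway. Wnt ligands act through Frizzled receptors and beta-catenin, which the 2i medium holds active by inhibiting GSK3. Of 24 members with 1 CPM in both controls, 14 were lower and 3 higher, and the median log2 fold change was -0.44, or -0.25 with library totals. Without each library in turn 14, 17, 10 and 7 were lower, and there were 5 higher and 9 lower with library totals. Fzd10, a Frizzled receptor, had 39.3 and 33.2 CPM in the depleted and 87.4 and 90.1 CPM in the control libraries. Sp5, a direct target of beta-catenin, had 6.98 and 5.79 against 17.8 and 15.4 CPM and fell by 1.38 ± 0.13, and Tcf7l2, a transcription factor that partners beta-catenin, had 23.6 and 23.8 against 52.2 and 53.6 CPM. Against this direction, Porcn, the enzyme that lipid-modifies Wnt ligands, rose by 1.25 ± 0.13, and the feedback inhibitors Nkd1 and Apcdd1 rose by 1.11 ± 0.23 and 1.04 ± 0.11.

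The Nodal and TGF-beta pathway had 11 of 25 members lower and 2 higher, or 10, 12, 8 and 8 lower without each library in turn, and 3 higher and 7 lower with library totals. Its median was -0.13, and 0.05 with library totals, so the sign of the median depended on the scaling. Nodal, the ligand, had 22.0 and 20.6 against 33.0 and 35.5 CPM (depleted, then control, here and below), and its type I receptor Acvr1b 32.0 and 35.7 against 54.9 and 52.1. Lefty2, the secreted Nodal inhibitor, had 13.0 and 13.5 against 129.5 and 134 CPM. In the BMP pathway 2 of 14 members were higher and 4 lower (4, 2, 2 and 2 higher, and 4, 4, 1 and 1 lower, without each library in turn, or 3 higher and 1 lower with library totals). Id3, an inhibitor of helix-loop-helix factors, rose from 4.02 and 3.56 to 14.0 and 9.17 CPM, whereas its relative Id4 fell from 10.7 and 14.2 to 5.42 and 5.78 CPM.

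FGF and ERK pathway genes were split, with 7 higher and 6 lower of 20 members (median -0.03). Without each library in turn 3, 7, 1 and 2 were higher and 6, 7, 4 and 4 lower, and 7 higher and 3 lower with library totals. Fgf4, the main FGF of ES cells, had 137 and 157 against 290.2 and 333 CPM and fell by 1.09 ± 0.13, while Fgf1 rose from 1.07 and 1.04 to 10.9 and 12.5 CPM. Outside these 20 and expressed through depleted library 2 only, Egr1, an immediate-early factor induced by ERK, had 4.39 and 2.12 against 0.535 and 0.532 CPM and rose by 2.61 ± 0.46, and the feedback inhibitor Spry4 had 3.83 and 3.23 against 0.648 and 1.02 CPM, a rise of 2.08 ± 0.39.

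In the Notch pathway 3 of 15 members were higher and 3 lower (2, 6, 2 and 2 higher, and 4, 5, 2 and 2 lower, without each library in turn, or 3 higher and 1 lower with library totals). Its ligand Dll1 had 4.13 and 3.56 against 0.134 and 0.174 CPM, a rise of 4.63 ± 0.47 that entered the expressed set through depleted library 2, and its target Hes1 fell from 68.5 and 66.9 to 39.7 and 39.2 CPM. In the Hedgehog pathway 6 of 12 members were higher and 3 lower, with 4, 6, 2 and 0 higher without each library in turn, and 5 higher and 2 lower with library totals. The 2 members whose calls held with each library left out were lower: Gli2, a transcription factor of the pathway, had 40.0 and 42.2 against 82.4 and 77.3 CPM and the receptor Ptch1 23.7 and 28.6 against 42.0 and 40.0 CPM, falls of 0.96 ± 0.11 and 0.65 ± 0.11. Retinoid receptors Rxra and Rarg rose by 0.87 ± 0.12 and 0.75 ± 0.12, in a list with 3 of 15 members higher and 1 lower (4, 5, 2 and 2 higher, and 1, 2, 1 and 0 lower, without each library in turn, or 3 higher and 0 lower with library totals).

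Collagens had the largest share of rises among the lists examined: 12 of 17 with 1 CPM in both controls were higher and 1 lower, with a median of 1.12. Without each library in turn 13, 13, 10 and 10 of the 17 were higher, and 12 higher and 1 lower with library totals. Col11a1, a minor fibrillar chain of cartilage and embryo, had 82.2 and 86.2 against 11.2 and 11.3 CPM and rose by 2.91 ± 0.12. Col5a2, which regulates fibril width, had 13.7 and 12.9 against 2.80 and 3.32 CPM and rose by 2.12 ± 0.15, and Col9a2, a chain of cartilage collagen, fell from 13.5 and 13.4 to 8.60 and 7.65 CPM. P4ha2, a prolyl hydroxylase that collagen folding needs, had 21.9 and 26.5 against 4.19 and 3.69 CPM and rose by 2.62 ± 0.13.

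Genes of the switch between epithelial and mesenchymal states were mixed, 6 of 16 higher and 4 lower, or 5, 6, 3 and 3 higher and 5, 6, 2 and 1 lower without each library in turn, and 5 higher and 3 lower with library totals. Snai2, a repressor of epithelial genes, had 6.27 and 4.95 against 1.82 and 1.499 CPM and rose by 1.76 ± 0.27. Mmp2, a gelatinase, had 8.69 and 8.76 against 3.16 and 2.65 CPM, and Cldn4, an epithelial claudin, fell from 19.4 and 16.6 to 9.35 and 11.997 CPM. Among actin and SRF target genes 10 of 24 were lower and 3 higher. The median level of that list was 128 CPM, and from 50 to 150 CPM 28.7% of all genes were lower and 5.92% higher. With library totals 4 were higher and 6 lower, and the median of -0.23 was -0.04. The count of lower genes also fell without either control library, where the spread came from the depleted pair alone. Tagln2, an actin-binding protein, fell from 45.2 and 48.1 to 28.4 and 29.7 CPM, while Zyx, a focal-adhesion protein, rose from 2.22 and 2.02 to 9.26 and 4.70 CPM.

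The nuclear lamina and envelope list had 10 of 16 members lower and 2 higher, with a median of -0.35. Without each library in turn 8, 10, 2 and 3 were lower. The count rested on the scaling too, with 2 higher and 5 lower with library totals and a median of -0.16 there. Lmna, which encodes the A-type lamins, had 19.1 and 17.7 against 31.6 and 27.4 CPM and fell by 0.68 ± 0.11. The higher member with the largest change, Man1a, encodes a mannosidase that trims glycans and is no protein of the envelope; it rose by 1.37 ± 0.23.

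Antioxidant genes were mostly lower. Of 23 members of the list of Nrf2-linked oxidative stress genes, 13 were lower and 1 higher, with a median of -0.41 (-0.22 with library totals), and 14, 19, 9 and 7 were lower without each library in turn, or 1 higher and 12 lower with library totals. Srxn1, which restores oxidised peroxiredoxins, had 13.0 and 12.6 against 24.4 and 25.2 CPM, a fall of 0.95 ± 0.11. Nqo1, a quinone reductase, had 25.6 and 23.9 against 43.2 and 47.6 CPM, and Gclm, a subunit of the first enzyme of glutathione synthesis, 24.8 and 26.2 against 40.9 and 43.6 CPM. The exception was Gpx3, a secreted glutathione peroxidase, which rose from 5.19 and 5.07 to 13.8 and 14.8 CPM. Glutathione S-transferases, which couple glutathione to toxic compounds, had 7 of 13 lower and 0 higher (median -0.44), or 7, 8, 5 and 5 lower without each library in turn and 0 higher and 6 lower with library totals. Gstm3 had 1.62 and 1.89 against 11.4 and 9.36 CPM, the largest fall of the family, and Gstm1 72.7 and 70.4 against 137 and 125 CPM, although related Gstm genes may share reads.

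Genes of lipid synthesis were in part lower, as were all genes of such levels. The cholesterol and fatty acid lists had median levels of 59.9 and 84.7 CPM. From 50 to 150 CPM 28.7% of all genes were lower and 5.92% higher. In cholesterol synthesis and uptake 9 of 23 were lower and 1 higher (median -0.23, -0.05 with library totals), and without each library in turn 8, 12, 6 and 6 were lower, or 4 higher and 6 lower with library totals. Pmvk, a kinase of the mevalonate pathway, had 13.7 and 13.4 against 26.2 and 24.9 CPM, a fall of 0.92 ± 0.11. Nsdhl, a dehydrogenase of sterol synthesis, had 26.3 and 25.5 against 45.3 and 49.3 CPM, a fall of 0.87 ± 0.11. In fatty acid metabolism 9 of 20 were lower and 1 higher, with 8, 14, 4 and 4 lower without each library in turn, or 4 higher and 7 lower with library totals. Srebf1, the transcription factor of lipid synthesis, fell from 71.7 and 68.1 to 40.2 and 41.9 CPM, and Acacb, an acetyl-CoA carboxylase, from 108 and 99.0 to 41.5 and 49.4 CPM.

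Counts for genes of respiration depended on the scaling. Of 79 nuclear genes of the electron transport chain 3 were higher and 3 lower, or 13 higher and 1 lower with library totals. All genes had shares of 14.3% and 20.3%. From 50 to 150 CPM, where this list had its median level of 68.3 CPM, the shares were 5.92% and 28.7%. In glycolysis 9 of 24 were lower and 2 higher, but 6, 11, 1 and 1 were lower without each library in turn, or 4 higher and 5 lower with library totals. Tpi1, the triose phosphate isomerase, fell by 0.55 ± 0.13, from 78.2 and 78.2 to 45.8 and 61.5 CPM. Pdk1, which limits entry of pyruvate into mitochondria, rose from 23.5 and 23.8 to 40.6 and 40.8 CPM, as did the mitophagy receptor Bnip3, from 14.2 and 14.96 to 24.0 and 27.0 CPM, both of the list of hypoxia-response genes, where 4 of 18 were higher and 7 lower (4, 4, 3 and 4 higher, and 6, 8, 0 and 0 lower, without each library in turn, or 4 higher and 4 lower with library totals).

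Lists of protein folding and cell death held calls in both directions. The heat shock list had a median level of 162 CPM. From 150 to 500 CPM 30.6% of all genes were lower and 2.33% higher. Of 21 heat shock genes 8 were lower and 1 higher, with 8, 14, 2 and 2 lower without each library in turn, or 3 higher and 6 lower with library totals. Hsf2, a heat shock transcription factor, fell from 99.5 and 108 to 57.6 and 58.6 CPM and the co-chaperone Dnaja1 from 195 and 212 to 129.8 and 113 CPM. Among 24 endoplasmic reticulum stress genes 3 were higher and 3 lower (3, 2, 2 and 1 higher, and 3, 10, 0 and 0 lower, without each library in turn, or 5 higher and 2 lower with library totals). Of these Ddit3, the stress factor also called CHOP, rose from 15.46 and 16.2 to 29.3 and 33.0 CPM. Among 23 genes of apoptosis 3 were higher and 6 lower (2, 3, 1 and 1 higher, and 6, 7, 0 and 1 lower, without each library in turn, or 5 higher and 2 lower with library totals). Casp8, the initiator caspase of death receptors, had 25.3 and 27.3 against 4.28 and 4.64 CPM, a rise of 2.56 ± 0.12.

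**Figure D4:**
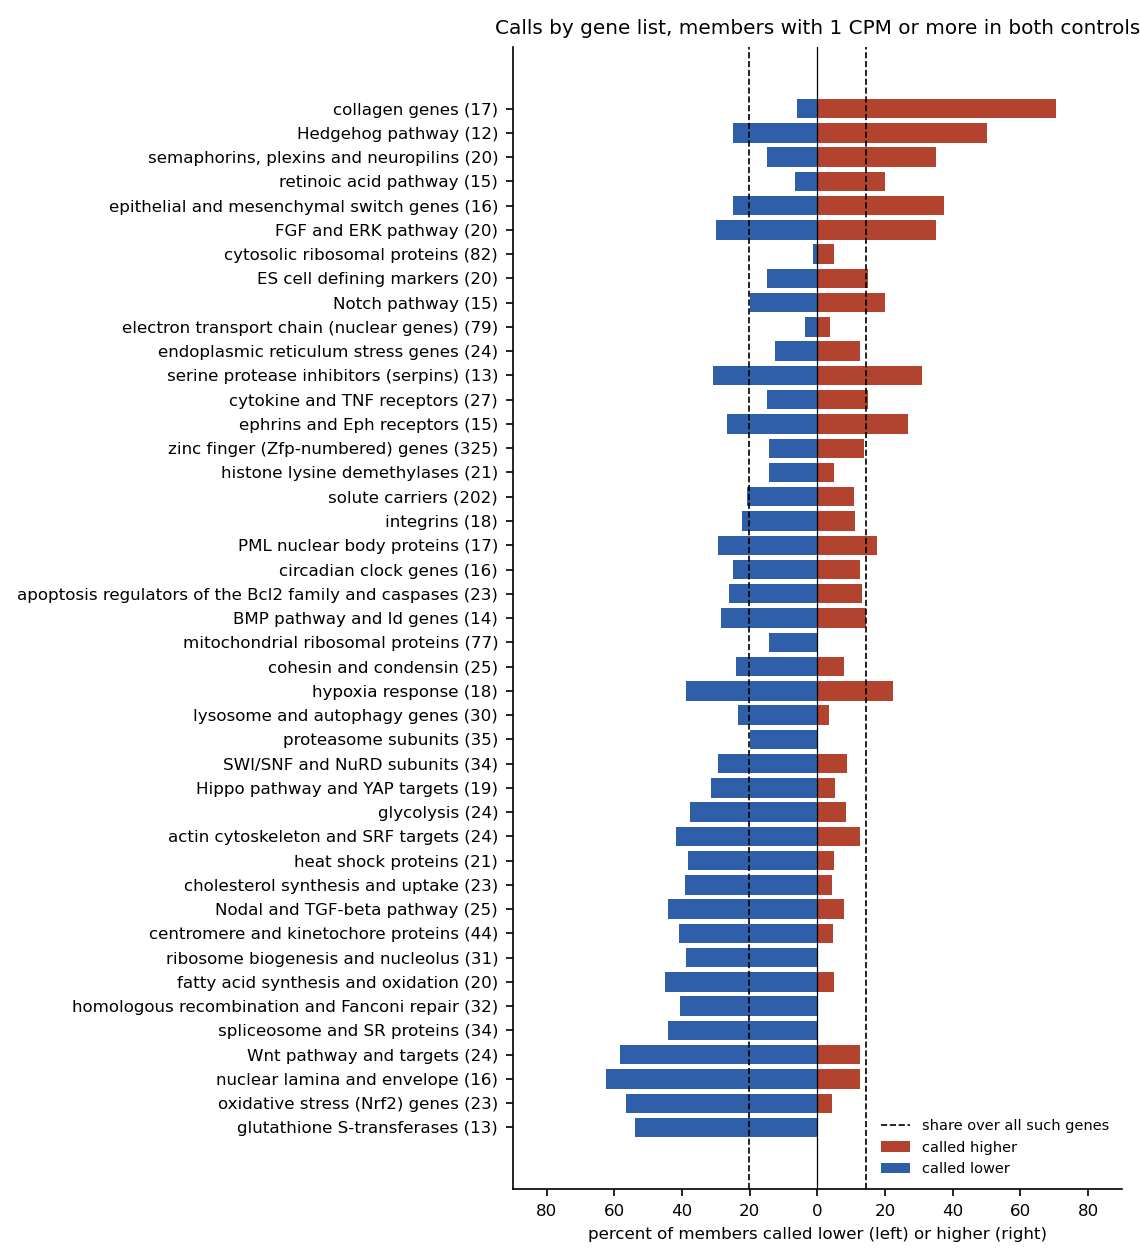
Percent of the members of 43 gene lists that were called higher (red, to the right) or lower (blue, to the left) among members with 1 CPM or more in both controls, whose number, at least 12, stands in brackets; the dashed lines are the 14.3% and 20.3% over all such genes. Of these 43 lists, collagens extend furthest to the right, and the nuclear lamina, Wnt and oxidative stress lists furthest to the left.

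Several lists of basic machinery had more lower than higher members, with small changes, as the plot of calls by gene list shows. So had all genes of such levels, with 5.92% higher and 28.7% lower from 50 to 150 CPM. From 150 to 500 CPM these shares were 2.33% and 30.6%. Of 34 spliceosome and SR proteins 15 were lower and 0 higher, with a median of -0.29. The count depended on the scaling, with 2 lower with library totals. It also fell without either control library, where the spread came from the depleted pair alone. The 1 member whose fall held with each library left out was Hnrnpa1, a splicing repressor, from 45.9 and 55.2 to 31.7 and 30.5 CPM. Of 31 ribosome biogenesis genes 12 were lower and 0 higher (5 lower with library totals, and 11, 24, 3 and 2 without each library in turn). Polr1a and Polr1b, the large subunits of RNA polymerase I, fell by 0.92 ± 0.13 and 0.54 ± 0.12. Of 82 cytosolic ribosomal protein genes 4 were higher and 1 lower, or 39 higher and 0 lower with library totals. Of 35 proteasome subunits, with a median level of 138 CPM, 0 were higher and 7 (20%) lower, or 0 higher and 1 lower with library totals. That share is below the 28.7% of all genes from 50 to 150 CPM. Rpl39l, a tissue-restricted copy of Rpl39, rose from 28.6 and 26.6 to 65.9 and 63.8 CPM.

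Repair and chromosome genes had more lower than higher members, as had all genes from 50 to 150 CPM, with 28.7% lower and 5.92% higher. In homologous recombination and Fanconi repair 13 of 32 were lower and 0 higher, with a median of -0.19 that was 0.01 with library totals, and 12, 19, 6 and 5 were lower without each library in turn, or 2 higher and 7 lower with library totals. Brca1, which starts repair of double-strand breaks, had 181 and 213 against 348 and 369 CPM and fell by 0.87 ± 0.13. Of 44 centromere and kinetochore genes 18 were lower and 2 higher, or 17, 34, 7 and 4 lower without each library in turn. The median of -0.27 was -0.08 with library totals, where 8 were lower and 4 higher. Cenpm, a protein of the inner kinetochore, fell from 47.7 and 65.1 to 27.3 and 39.9 CPM, and Esco2, which acetylates cohesin, from 102 and 113 to 64.1 and 67.6 CPM.

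Lists of nuclear body and chromatin genes held calls in both directions. Of 17 genes of PML nuclear bodies, structures built on SUMO, 3 were higher and 5 lower (3, 3, 2 and 2 higher, and 5, 12, 0 and 0 lower, without each library in turn, or 3 higher and 0 lower with library totals). Among the 3 were Sp110, with 21.4 and 24.8 against 3.11 and 2.17 CPM, and Sp140, with 5.83 and 6.46 against 1.28 and 1.74 CPM, relatives of the nuclear body protein Sp100. Both calls held with each library left out. Among SWI/SNF and NuRD subunits 10 of 34 were lower and 3 higher, or 8, 24, 1 and 1 lower without each library in turn, and 4 higher and 7 lower with library totals. The list of these subunits had a median level of 100 CPM. From 50 to 150 CPM 28.7% of all genes were lower and 5.92% higher. Chd3, a remodelling ATPase of NuRD, had 20.1 and 21.5 against 58.9 and 56.1 CPM and fell by 1.47 ± 0.11, more than 2-fold. Of 21 lysine demethylases 1 was higher and 3 lower, below the shares of all genes (1, 1, 1 and 1 higher, and 2, 12, 1 and 1 lower, without each library in turn, or 6 higher and 2 lower with library totals). Kdm6b, which removes methyl groups from lysine 27 of histone H3, fell from 98.7 and 99.1 to 59.5 and 64.4 CPM. The numbered Zfp genes, 325 of them, had 45 higher and 46 lower, shares of 13.8% and 14.2%, or 81 higher and 13 lower with library totals. Over the 338 expressed members the main fit gave 53 higher and 46 lower. TMM factors from genes expressed in both controls gave 86 higher and 32 lower there, so the even split depended on the scaling.

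Genes of the Y chromosome did not move together. Kdm5d, a demethylase of lysine 4 of histone H3, rose from 2.31 and 2.55 to 11.2 and 13.0 CPM (2.31 ± 0.16). Usp9y, a deubiquitinase, rose from 1.16 and 1.56 to 11.4 and 12.8 CPM (3.15 ± 0.18) and, like the other genes of this paragraph after it, was chosen after its values were seen. Ddx3y, an RNA helicase, had 191 and 212 CPM against 200.2 and 233 in the controls, and Eif2s3y, a translation factor, 178 and 193 against 152 and 166, with log2 fold changes of -0.11 and 0.23 that did not pass. Uba1y, a ubiquitin-activating enzyme, rose from 23.7 and 24.5 to 65.6 and 79.9 CPM. It was the third of 3 higher genes among 7 expressed Y-linked genes, of which 0 were lower.

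Some cell-surface and secreted genes were near silent in the controls. Of C-type lectins only 2 had 1 CPM in both controls, with 0 higher and 1 lower. Outside that set, expressed through depleted library 2, Clec2g had 22.8 and 22.2 against 0.535 and 0.576 CPM and Clec2i 4.70 and 3.51 against 0.350 and 0.239. Il7, a lymphocyte growth factor, had 3.89 and 3.31 against 0.309 and 0.380 CPM, and Il34, a ligand of the macrophage growth factor receptor, 10.5 and 10.7 against 4.96 and 5.14. Tnfrsf23, a decoy receptor of the TNF family, rose by 3.06 ± 0.46, from 0.381 and 0.413 to 4.09 and 2.57 CPM.

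Vessel and guidance genes were split. Of 7 endothelial markers with 1 CPM in both controls 2 were higher and 1 lower (2, 2, 1 and 1 higher, and 1, 1, 1 and 1 lower, without each library in turn, or 4 higher and 1 lower with library totals). Flt1 and Tie1, receptors of endothelial cells that were expressed through depleted library 2 only, had 5.98 and 4.07 against 1.13 and 0.869 and 6.59 and 8.07 against 1.07 and 0.695 CPM, while Vwf, the clotting factor that endothelial cells secrete, fell from 20.2 and 17.8 to 10.2 and 11.2 CPM. Among semaphorins, plexins and neuropilins 7 of 20 were higher and 3 lower, with 6, 8, 3 and 1 higher without each library in turn, or 5 higher and 2 lower with library totals. Nrp1, a coreceptor of semaphorins and VEGF that was expressed through depleted library 2 only, rose from 0.247 and 0.424 to 3.78 and 3.25 CPM and Plxnd1, a plexin, from 3.03 and 2.61 to 11.4 and 8.997 CPM. Ephrins and their receptors had 4 of 15 higher and 4 lower (4, 5, 4 and 3 higher, and 5, 6, 2 and 2 lower, without each library in turn, or 4 higher and 2 lower with library totals). The ligands Efna5 and Efnb2 rose by 1.98 ± 0.26 and 1.01 ± 0.12.

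Solute carriers, 202 genes with 1 CPM in both controls, had 22 higher and 42 lower (29, 26, 10 and 9 higher, and 45, 71, 20 and 16 lower, without each library in turn, or 35 higher and 18 lower with library totals), so which direction held more calls depended on the scaling. In the main fit these were shares of 10.9% and 20.8%, beside 14.3% and 20.3% of all genes with 1 CPM in both controls. Slc39a14, a zinc and iron importer outside that set, had 6.72 and 6.51 against 0.751 and 0.826 CPM and rose by 3.07 ± 0.27. Slc1a3, a glutamate transporter, rose from 4.04 and 4.43 to 12.2 and 11.7 CPM, and Slc38a2, a transporter of neutral amino acids, fell from 159 and 187 to 80.0 and 97.6 CPM. Of the serpins, protease inhibitors, 4 of 13 were higher and 4 lower (4, 5, 3 and 3 higher, and 3, 6, 2 and 3 lower, without each library in turn, or 4 higher and 2 lower with library totals), and Serpine2 rose by 1.40 ± 0.13.

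Most of the largest changes in absolute level belonged to abundant genes and were small in fold, unlike those of Mep1b and Hltf above. Fbxo15, an F-box gene specific to ES cells, had 575 and 671 against 382 and 329.6 CPM, and Idh1, the cytosolic isocitrate dehydrogenase, 701 and 763 against 449 and 484 CPM. Among the falls, Hsp90ab1, a chaperone, had 5734 and 6707 against 8451 and 8846 CPM, Hspa8, another, 1728 and 1764 against 2500.5 and 2643, and Actb, beta-actin, 1349 and 1573 against 1870.0 and 2061. In each of the 5 the groups did not overlap, which was a condition of naming them. Their calls did not hold without control library 1 or without control library 2, where the spread came from the depleted pair alone.

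Some changed genes lay side by side. Among 16416 pairs of neighbouring tested genes, 493 were both higher with no overlap between the groups, 469 both lower and 513 changed in opposite directions. Runs of at least 4 neighbours in the same direction numbered 49, of which 28 were higher with 125 genes and 21 lower with 94 genes. Over all 16499 tested genes, 2312 were expressed and higher with no overlap and 2460 lower. How many pairs or runs such shares give without any clustering was not computed. Neighbours are tested genes only and can lie far apart, as in a run that spans 2982 kb. Some runs hold related genes with near-identical copies (the Zscan4, Usp17l, Tcstv and Slfn genes), where shared reads could tie neighbours together. Others join unrelated genes, and the plot of neighbouring genes shows 6 runs.

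On chromosome 5, Zfp951, Abcg3, a membrane transporter, and the interferon-inducible GTPase genes Gbp8 and Gbp9 were all higher. Gbp9 had 20.2 and 21.8 against 2.35 and 2.23 CPM and Abcg3 3.16 and 3.08 against 0.443 and 0.424, and each of the 4 calls held with any library left out. On the X chromosome Lancl3, Xk, Cybb, Dynlt3 and Rpgr were higher, from 0.50 for Xk, a membrane protein of red cells, to 4.12 for Cybb on the log2 scale. The call of Xk was lost without either control library, and it was not the only call of this run lost with a library left out. On chromosome 9, Paqr9, Pcolce2, Trpc1 and Pls1 were higher, though not every call of this run held with each library left out. Pcolce2, which aids the processing of procollagen, had 62.5 and 64.4 against 20.1 and 22.1 CPM, and Pls1, an actin bundler, 7.92 and 7.43 against 3.10 and 2.95.

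Other runs were lower. The T cell receptor complex chains Cd3g, Cd3d and Cd3e, with Ube4a and Mpzl2 on either side on chromosome 9, were lower. Cd3e had 15.4 and 17.1 against 30.8 and 32.9 CPM and Mpzl2, an adhesion protein, 56.1 and 56.5 against 94.8 and 109, while the calls of Ube4a (-0.39) and Cd3d (-0.37) were lost without either control library, and that of Cd3d also without depleted library 2. On chromosome 7, Chst15, Oat, Nkx1-2, Lhpp and Fam53b were lower, led by the homeobox gene Nkx1-2 with 1.13 and 0.537 against 5.54 and 5.18 CPM. Not every call of that run held with each library left out. The longest run without related or predicted genes had 7 members on chromosome 8, from Terf2 to Psmd7, with Nqo1 in its middle. Its log2 fold changes lay between -0.94 and -0.35, and 2 of its 7 calls held with each library left out.

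**Figure D5:**
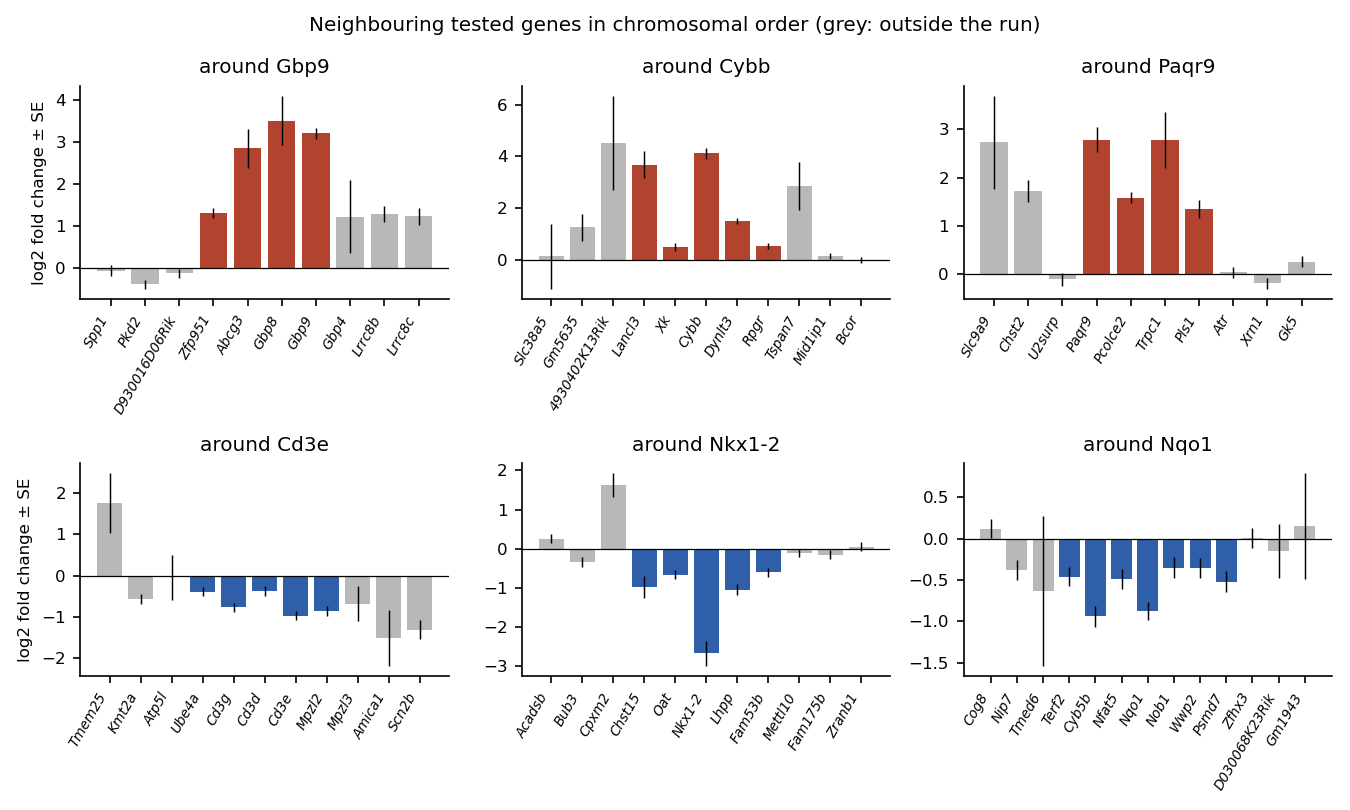
Log2 fold change with its SE (vertical axes) of neighbouring tested genes in the order of their starts on the chromosome, for 6 runs of at least 4 genes with the same direction (red higher, blue lower) and the tested genes beside them (grey). Each run ends at a neighbour that did not pass, had overlapping groups, was not expressed by the rule or went the other way.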

How the data were processed

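Counts per gene were used as deposited, from 1 table with a column for each of the 4 libraries and no gene left without a name. Per the submitters' processing notes, the authors made these counts on mm10 with tools that include cutadapt, STAR, HTSeq and DESeq2. For versions, annotation and strand setting, nothing is given in the sources used here, and reads of antisense partners and near-identical genes may be shared. Per the labels' protocols, RNA was taken with Trizol, selected on polyA beads and made into libraries with the ScriptSeq v2 kit.

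Genes were tested with edgeR 4.0.16 in R 4.3.3, using filterByExpr (minimum count 10, minimum total 15), TMM factors, the quasi-likelihood F test between the groups and Benjamini-Hochberg adjustment over 16499 genes at 0.05. CPM are counts scaled to a common library size after TMM. The biological coefficient of variation was 0.255. The Spearman correlation of counts was 0.970 between the depleted and 0.985 between the control libraries. RefSeq genes of GRCm38.p6 gave coordinates for 23203 symbols and, by older name, for another 1096; 122 were not matched.

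Members and gene lists were chosen with earlier results of these data known. Named were genes with a call, no overlap and the expression rule among the 25 largest rises or falls at a mean of at least 5 CPM, the 12 largest rises and falls in CPM, 15 genes under 0.1 CPM in both controls, up to 3 members per list and direction by lowest p, the 8 calls with the largest ratio of depleted library 1 to 2, and genes in runs of at least 4 neighbours. Predicted genes were passed over in the ranks, and the text uses some of the 512 genes so chosen. Some of them are not reported here. Marker genes that did not pass, and genes said to be so, fall outside that rule.

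Alternatives were DESeq2 1.42.0, RLE factors, library totals, TMM factors from genes expressed in both controls, other filters, a replicate block, each library left out, all 8 libraries of the series in 1 fit and a test against a 2-fold change. Leaving out Rn45s and the promoter counts over genes with 1 CPM in both controls were added after seeing the data. With a library left out, the lone library of its group was assumed to vary like the other group's. Without a control library the spread thus came from the depleted pair alone, and without a depleted library from the controls. In simulated counts over 16499 genes of this design, 58% of 2-fold and 86% of 4-fold changes were recovered, and 7.69% of 156 calls were false, above the nominal level. The simulation changed only a small part of the genes, as many up as down. It did not copy the reads on silent genes in depleted library 1, so these rates need not hold for the data. Reads, splicing and transposons were not analysed here.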

Additional observations from a re-analysis of the deposited data

How the results depend on the processing

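Counts of calls moved with several choices. With DESeq2, 1440 expressed genes were higher, against 2328 in edgeR. With library totals 1084 genes, 1082 of them expressed, were lower, against 2467 and 2463. In 1 fit of all 8 libraries 1100 genes were higher and 483 lower (931 and 482 among expressed genes), and against a 2-fold change 1122 and 50 (612 and 49). Leaving out each library in turn gave 1230 to 8428 genes higher and 795 to 4610 lower, and among expressed genes 1052 to 2728 higher and 795 to 4592 lower. The highest of these counts came without depleted library 2 and the lowest without control library 2. RLE factors, TMM factors from genes expressed in both controls, other filters and leaving out Rn45s kept all 4 counts within 1.5 times. The cause was not tested.

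With the replicate number as a block, 3160 genes were higher and 2643 lower, or 2244 and 2639 among expressed genes. The labels do not say that a number marks a shared culture or day, and deviations of same-numbered libraries from their group means had a correlation of 0.017 across genes, so the libraries were not taken as paired.

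Of the 512 genes chosen by the rule for naming, 267 kept their call with each of the 4 libraries left out. Calls were lost for 91 with DESeq2, 94 with library totals, 260 in the fit of 8 libraries, 209 without control library 1, 222 without control library 2, 30 without depleted library 1, 27 without depleted library 2 and 16 with the block. Without depleted library 1 the direction turned for 6 genes chosen for their large ratio between the depleted libraries: the log2 fold changes with a library left out ranged from -6.46 to 6.94 for Hist1h3f, -0.36 to 5.01 for Lor, -0.69 to 9.48 for Nkain3, -0.61 to 4.44 for Rab27b, -1.53 to 4.05 for Rax and -1.25 to 4.09 for Tbr1. A pair of libraries per group and reads on silent genes in depleted library 1 limit what can be said of genes under 1 CPM.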

Other observations

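Long noncoding RNAs were expressed from 327 genes, of which 72 (22.0%) were higher and 42 (12.8%) lower, beside 17.8% and 19.2% of 12508 protein-coding genes. Both counts are over the expressed set, which favours rises through genes expressed in depleted library 2 only. Levels of these classes were not matched, and the part of level and of the rule was not tested. Mir17hg, the host of the miR-17-92 microRNAs, was chosen after its values were seen and had 34.2 and 37.5 CPM in the depleted against 19.6 and 25.4 CPM in the control libraries. It rose by 0.67 ± 0.12 on the log2 scale in edgeR, with adjusted p = 0.059 without control library 1 and 5.5e-05 without control library 2. The deposited counts are per host gene, so the microRNAs themselves were not measured.

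Clock genes, which drive daily rhythms, had 2 of 16 members with 1 CPM in both controls higher and 4 lower, beside 14.3% and 20.3% of all such genes (2, 4, 2 and 2 higher, and 5, 4, 1 and 1 lower, without each library in turn, or 2 higher and 1 lower with library totals; libraries in the order depleted 1 and 2, control 1 and 2). Cry1, a repressor of the clock, rose from 41.1 and 43.5 to 96.5 and 87.9 CPM, and Bhlhe40, another repressor, fell from 24.8 and 24.3 to 14.96 and 10.5 CPM. Arntl2, a relative of the clock activator Arntl, had 7.18 and 8.28 CPM in the depleted and 2.73 and 2.52 CPM in the control libraries. Among egg genes, Sohlh2, a factor of early oocytes, rose from 22.9 and 22.6 to 42.6 and 49.5 CPM, and Khdc3, of the maternal complex of the egg, fell from 23.2 and 32.0 to 14.5 and 9.94 CPM.

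The genes with the largest ratio of depleted library 1 to library 2 among calls show the spread of that pair. Dnase2b, a nuclease of the lens, had 0.210 and 0 CPM in the depleted libraries and 0.813 and 0.847 in the controls, and Cxxc4, a Wnt inhibitor, 6.81 and 0.144 against 0 and 0.0109 CPM. Rax, a homeobox gene of the eye field, had 3.36 and 0.0655 CPM in the depleted libraries and 0.154 and 0.228 in the controls.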
